A study of Homo sapiens with 18 samples.

Results

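The 33 genes described here encode the subunits of the human Mediator complex: every gene whose symbol is MED followed by a number (with or without a final L), together with CDK8, CDK19 and CCNC. All 33 were among the 26249 genes listed for each library. They were picked by a rule on names, set with earlier results of these data known. The libraries came from a study of the CDK7 inhibitor YKL-5-124, whose title names resistant multiple myeloma cell lines. For the lines labelled XG1 and AMO1 there were 3 libraries each from cells kept for 24 h in the solvent DMSO, in 100 nM YKL-5-124 or in 1000 nM YKL-5-124, 18 libraries in 6 groups. Both lines are given as multiple myeloma, and the labels name no transgene, selection or other treatment that differs between the groups or that the groups share. Nothing in the labels tells whether the replicates of a group were grown separately, and p-values then reflect the spread between these libraries, which may be technical.

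Mediator is the large coactivator that carries signals from enhancer-bound transcription factors to RNA polymerase II at promoters. Its core is divided into a head and a middle, which contact the polymerase, and a tail, which binds many activators, and MED14 is the scaffold that joins them. A separable kinase module made of CDK8 or CDK19, cyclin C (CCNC), MED12 or MED12L, and MED13 or MED13L docks on the core and controls its contact with the polymerase. CDK7, the target of the drug, is the kinase of the general factor TFIIH, which Mediator helps to phosphorylate the polymerase tail at promoters. MED27, MED28, MED29 and MED30 are counted with the head below, although their place differs between descriptions of the complex. Myeloma arises from plasma cells, and its growth genes are often driven by large enhancers that carry much Mediator.

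All values are FPKM, a fragment count scaled by transcript length and library size, from 3' libraries. Reads gather at the 3' end of a transcript in such libraries, so the division by length makes levels of different genes unequal in scale. The tests compare levels only within a gene. Sums over several genes, used for whole libraries and for marker genes, mix these scales, so the part of 1 gene in a sum is rough. The summed spike-in RNAs were nearly the same in every library, so that a change on the deposited scale is a change relative to added RNA, and in these bulk samples fewer cells and less RNA per cell cannot be told apart. The sum over all genes was lower at each dose than in DMSO in both lines, and the AMO1 library of 1000 nM replicate 2 (431965 FPKM) lay under replicates 1 and 3 of its group (686266 and 683618 FPKM). The XG1-labelled library of 100 nM replicate 3 had 10667 genes at or below its most common listed value. The other 8 libraries of that label had 5141 to 6029. In AMO1 this number rose with dose, from 5378 to 6538 genes in DMSO to 8401 to 8914 at 100 nM and 10504 to 10951 at 1000 nM. The median coefficient of variation of the Mediator genes in AMO1 was 14.6% in DMSO, 13.5% at 100 nM and 26.0% at 1000 nM. Changes are therefore given also on a relative scale, on which each library was divided by its median-ratio size factor so that the median gene stayed near 0. That factor was taken over genes of at least 1 FPKM in every library of the fit. Between the lines in DMSO the median of all tested genes was log2 0.17 on this scale. A change was called where limma's Benjamini-Hochberg adjusted p, taken over all genes tested, was under 0.05.

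The markers of the cell types went against the XG1 label. The summed level of 10 plasma cell genes was 64.5 to 145 FPKM over the 9 XG1-labelled libraries against 5256 to 10714 FPKM over the 9 AMO1 libraries. XBP1 and SDC1 made up most of the XG1-labelled sum in DMSO, with means of 82.6 and 24.2 FPKM. In AMO1 cells in DMSO they averaged 213.8 and 5067 FPKM. IRF4, the transcription factor that myeloma cells need, averaged 0.533 ± 0.310 FPKM in XG1-labelled cells in DMSO and 77.5 ± 6.13 FPKM in AMO1 cells in DMSO (SD, n = 3 each). Summed erythroid genes (10 genes, among them globins) stood at 2914 to 4942 FPKM in the XG1-labelled libraries and 2.21 to 9.33 FPKM in the AMO1 libraries. Of the 10 plasma cell genes, 5 reached a mean of 1 FPKM in XG1-labelled cells in DMSO and 10 in AMO1 cells in DMSO. None of the plasma cell genes was at or below the most common listed value in all libraries of a group. Of the erythroid genes, HBA1, HBA2, GATA1 and ALAS2 were so in the AMO1 100 nM group. Summed myeloid genes (5 genes) ran from 39.5 to 98.9 FPKM in XG1-labelled libraries and from 0.394 to 1.30 FPKM in AMO1 libraries, and ITGAM (71.7 FPKM) and LYZ (12.2 FPKM) made up most of the XG1-labelled DMSO mean, while CD14, CSF1R and MPO averaged 0.321, 0.125 and 0.258 FPKM there. The sum of 5 T and NK cell genes ran from 31.4 to 58.6 FPKM in XG1-labelled libraries and from 0.734 to 2.20 FPKM in AMO1 libraries. CD7 alone (45.5 FPKM in XG1-labelled DMSO libraries) carried the XG1-labelled sum, and CD3E averaged 0.130 FPKM in XG1-labelled cells and 1.14 FPKM in AMO1 cells in DMSO. The label is kept below as a name only, and what the XG1-labelled cells were was not tested.

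In AMO1 cells at 1000 nM YKL-5-124, 25 of the 30 Mediator genes that could be tested fell and 0 rose on the deposited scale, while relative to the median gene 6 were lower and 3 higher. Over all 10503 genes tested in AMO1, 65.7% fell and 2.51% rose, and the median change was log2 −0.86 for the Mediator genes and −0.77 for all genes. The fall therefore took in most of the complex at about the size of the general fall. Head genes fell in 9 of 11 cases, middle genes in 8 of 9, the scaffold MED14 in 1 of 1, tail genes in 4 of 5, and kinase module genes in 3 of the 4 tested. MED18, MED29, MED31, MED23 and MED13 did not pass the test, and no Mediator gene was higher even at an unadjusted p under 0.05. MED12L, CDK8 and CDK19 stayed below the filter of 1 FPKM in 3 libraries and were not tested in AMO1.

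MED30 had the largest fall of the complex at both doses. This subunit is found in animals and not in yeast. It stood at 30.8, 39.6 and 40.5 FPKM in DMSO, 12.0, 12.5 and 11.4 FPKM at 100 nM and 9.98, 4.10 and 10.4 FPKM at 1000 nM. Neither treated group overlapped DMSO, and the change was log2 −2.13 ± 0.27 (SE) at 1000 nM (adjusted p = 1.7e-05) and −1.54 ± 0.27 at 100 nM (adjusted p = 0.0011). Relative to the median gene it was still lower, by log2 −1.23 at 1000 nM (adjusted p = 2.8e-04) and −1.11 at 100 nM (adjusted p = 0.0010). Both calls held on both scales without any 1 of the 6 libraries compared.

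MED22, a small head subunit that pairs with MED11, stood at 19.2, 27.7 and 23.1 FPKM in DMSO, 10.4, 14.8 and 15.4 FPKM at 100 nM and 7.56, 6.06 and 8.06 FPKM at 1000 nM. All 3 libraries at each dose were below all DMSO libraries. The fall was log2 −1.56 ± 0.22 at 1000 nM (adjusted p = 3.3e-05) and −0.75 ± 0.22 at 100 nM (adjusted p = 0.018). MED21, which pairs with MED7 at the hinge of the middle, had 8.44, 11.3 and 10.6 FPKM in DMSO, 6.18, 7.26 and 6.71 FPKM at 100 nM and 3.81, 2.92 and 3.72 FPKM at 1000 nM. Its groups did not overlap either, and it fell, with log2 −1.30 ± 0.19 at 1000 nM (adjusted p = 4.2e-05) and −0.52 ± 0.19 at 100 nM (adjusted p = 0.046). MED24, a tail subunit that binds with MED16 and MED23, had 36.9, 38.2 and 26.5 FPKM in DMSO, 16.7, 15.9 and 20.2 FPKM at 100 nM and 13.7, 8.16 and 13.0 FPKM at 1000 nM. It fell, with log2 −1.48 ± 0.23 at 1000 nM (adjusted p = 8.6e-05) and −0.90 ± 0.23 at 100 nM (adjusted p = 0.0099), again with no overlap.

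MED1, the middle subunit through which nuclear receptors bind Mediator, stood at 30.8, 35.5 and 29.1 FPKM in DMSO, 21.1, 19.3 and 19.9 FPKM at 100 nM and 15.9, 8.39 and 14.4 FPKM at 1000 nM in AMO1. The treated libraries lay below all DMSO libraries at both doses, and the 1000 nM libraries below all 100 nM libraries. MED1 fell, with log2 −1.28 ± 0.23 at 1000 nM (adjusted p = 2.4e-04) and −0.63 ± 0.23 at 100 nM (adjusted p = 0.045). MED4, another middle subunit, had 55.1, 63.0 and 56.2 FPKM in DMSO, 41.9, 42.4 and 36.4 FPKM at 100 nM and 27.7, 17.0 and 27.6 FPKM at 1000 nM. It fell, with log2 −1.27 ± 0.22 at 1000 nM (adjusted p = 1.8e-04), while −0.52 ± 0.22 at 100 nM missed the threshold (adjusted p = 0.078). MED14, the scaffold, was at 5.72, 7.26 and 6.27 FPKM in DMSO, 4.55, 4.63 and 4.64 FPKM at 100 nM and 4.19, 1.99 and 3.21 FPKM at 1000 nM. It fell, with log2 −0.87 ± 0.21 at 1000 nM (adjusted p = 0.0022) and stood at −0.40 ± 0.21 at 100 nM (adjusted p = 0.16).

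Most other core subunits of AMO1 also fell at 1000 nM. MED17, the central head subunit, had 2.72, 5.27 and 3.67 FPKM in DMSO, 2.27, 2.48 and 3.21 FPKM at 100 nM and 2.03, 1.25 and 1.73 FPKM at 1000 nM and fell (log2 −0.85 ± 0.22, adjusted p = 0.0034), with the 1000 nM libraries below DMSO. MED6, which bridges head and middle, had 5.09, 7.73 and 8.44 FPKM in DMSO, 4.81, 3.87 and 5.44 FPKM at 100 nM and 2.63, 1.90 and 2.90 FPKM at 1000 nM and fell (log2 −1.20 ± 0.21, adjusted p = 2.5e-04). MED7, the partner of MED21, had 9.77, 10.3 and 10.7 FPKM in DMSO, 8.12, 9.14 and 9.99 FPKM at 100 nM and 7.05, 3.62 and 5.76 FPKM at 1000 nM and fell (log2 −0.84 ± 0.21, adjusted p = 0.0033).

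MED26, the middle subunit that brings in elongation factors, had 12.9, 17.0 and 11.4 FPKM in DMSO, 11.2, 11.5 and 14.0 FPKM at 100 nM and 7.64, 6.67 and 12.8 FPKM at 1000 nM, with overlapping groups. Its call at 1000 nM (log2 −0.59 ± 0.24, adjusted p = 0.040) was lost without DMSO replicate 1 or 2 and without 1000 nM replicate 1 or 2, where the change lay between −0.62 and −0.42. The tail subunits MED15 (log2 −0.83 ± 0.19, adjusted p = 0.0014) and MED25, the target of the viral activator VP16 (log2 −0.77 ± 0.23, adjusted p = 0.0094), fell with no overlap. MED18 (log2 −0.49 ± 0.24, adjusted p = 0.080) and MED31 (log2 −0.38 ± 0.28, adjusted p = 0.24) overlapped DMSO. In the reference annotation MED31 overlaps TXNDC17, MED11 overlaps CXCL16 and MED23 overlaps ARG1.

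Among the kinase module genes of AMO1, cyclin C fell most. CCNC stood at 53.9, 58.1 and 51.9 FPKM in DMSO, 29.7, 32.3 and 38.5 FPKM at 100 nM and 27.7, 17.9 and 32.8 FPKM at 1000 nM. It fell, with log2 −1.08 ± 0.23 at 1000 nM (adjusted p = 8.9e-04) and −0.70 ± 0.23 at 100 nM (adjusted p = 0.031), with no overlap with DMSO at either dose. MED12, which activates the kinase through cyclin C, had 4.86, 5.98 and 3.87 FPKM in DMSO, 3.17, 4.66 and 4.26 FPKM at 100 nM and 3.59, 2.20 and 3.24 FPKM at 1000 nM. Its change of log2 −0.56 ± 0.21 at 1000 nM passed (adjusted p = 0.030), but the call was lost without DMSO replicate 1, DMSO replicate 2 or 1000 nM replicate 2, where the change lay between −0.56 and −0.41. MED13L, a paralog of MED13, had 3.25, 4.74 and 4.20 FPKM in DMSO, 3.04, 2.60 and 3.39 FPKM at 100 nM and 2.69, 1.85 and 2.31 FPKM at 1000 nM, and fell, with log2 −0.62 ± 0.19 at 1000 nM (adjusted p = 0.0098). MED13, which ties the module to the core, had 3.17, 3.37 and 3.53 FPKM in DMSO, 2.37, 2.71 and 2.81 FPKM at 100 nM and 3.07, 1.58 and 2.54 FPKM at 1000 nM. The 1000 nM libraries lay under the DMSO libraries, but the change of log2 −0.38 ± 0.19 missed the threshold (adjusted p = 0.092, 95% interval −0.80 to 0.03).

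The 3 kinase module genes below the filter in AMO1 lay above the most common listed value of each AMO1 library (0.0711 to 0.0971 FPKM). CDK8, one of the alternative kinases, was at 1.41, 0.732 and 0.708 FPKM in DMSO, 1.19, 0.835 and 0.753 FPKM at 100 nM and 0.315, 0.592 and 0.759 FPKM at 1000 nM. CDK19, the other, was at 0.579, 1.27 and 0.817 FPKM in DMSO, 0.775, 0.715 and 1.000 FPKM at 100 nM and 0.751, 0.846 and 0.882 FPKM at 1000 nM, and MED12L, a paralog of MED12, at 0.378, 0.690 and 0.869 FPKM in DMSO, 0.360, 0.540 and 0.642 FPKM at 100 nM and 0.362, 0.332 and 0.296 FPKM at 1000 nM. The groups of CDK8 and CDK19 overlapped at 1000 nM, and those of MED12L did not. In a fit without the filter none of them was called at 1000 nM, with adjusted p = 0.38 for CDK8, 0.90 for CDK19 and 0.16 for MED12L.

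**Figure D1:**
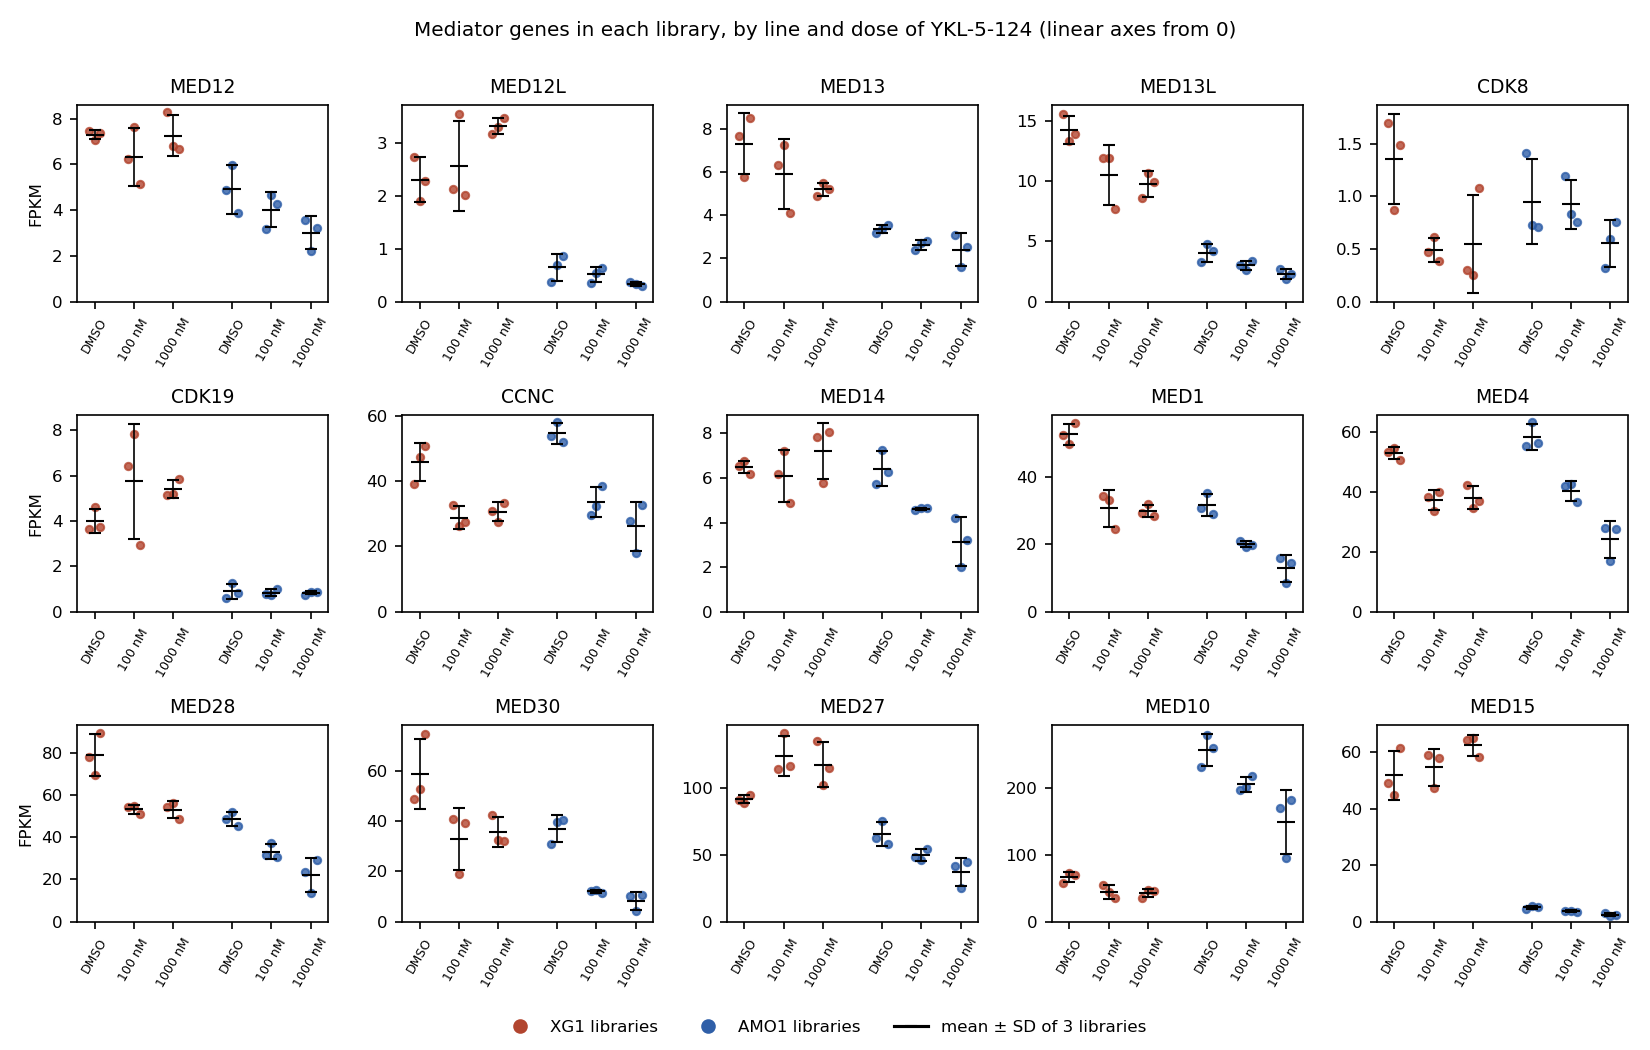
FPKM of 15 Mediator genes in each of the 18 libraries (points, linear axis from 0), with the mean and SD of each group of 3, XG1-labelled libraries left and AMO1 right, doses from DMSO to 1000 nM. In AMO1 the 1000 nM points of MED30 (4.10 to 10.4 FPKM) lie far under its DMSO points (30.8 to 40.5 FPKM), while MED15 and CDK19 separate the lines at every dose.

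Measured against the median gene, the 30 Mediator genes of AMO1 at 1000 nM split in both directions, with 6 lower and 3 higher. There, 24.2% of all genes were lower and 24.0% higher. The lower ones were MED30, MED22, MED24, MED21, MED1 and MED4, at log2 −1.23, −0.65, −0.55, −0.47, −0.35 and −0.31, and each kept its call without any 1 library. The higher ones were MED29, MED23 and MED13, at log2 0.62, 0.54 and 0.33. MED23 (adjusted p = 0.011), a tail subunit contacted by signal-dependent activators, kept its call without any 1 library. MED29 (adjusted p = 0.033) lost it without each of the 6 libraries in turn, and MED13 (adjusted p = 0.047) without 5 of them.

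MED23 was low throughout, at 1.20, 1.61 and 1.29 FPKM in DMSO, 1.88, 1.51 and 1.52 FPKM at 100 nM and 1.44, 1.22 and 1.31 FPKM at 1000 nM. Its groups overlapped, and on the deposited scale its change at 1000 nM was log2 −0.03 ± 0.17 (95% interval −0.39 to 0.34). MED29 stood at 4.87, 4.83 and 4.34 FPKM in DMSO, 2.67, 4.98 and 6.46 FPKM at 100 nM and 4.33, 3.15 and 4.74 FPKM at 1000 nM, also with overlapping groups. Its change on the deposited scale was log2 −0.18 ± 0.24 (95% interval −0.69 to 0.34).

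**Figure D2:**
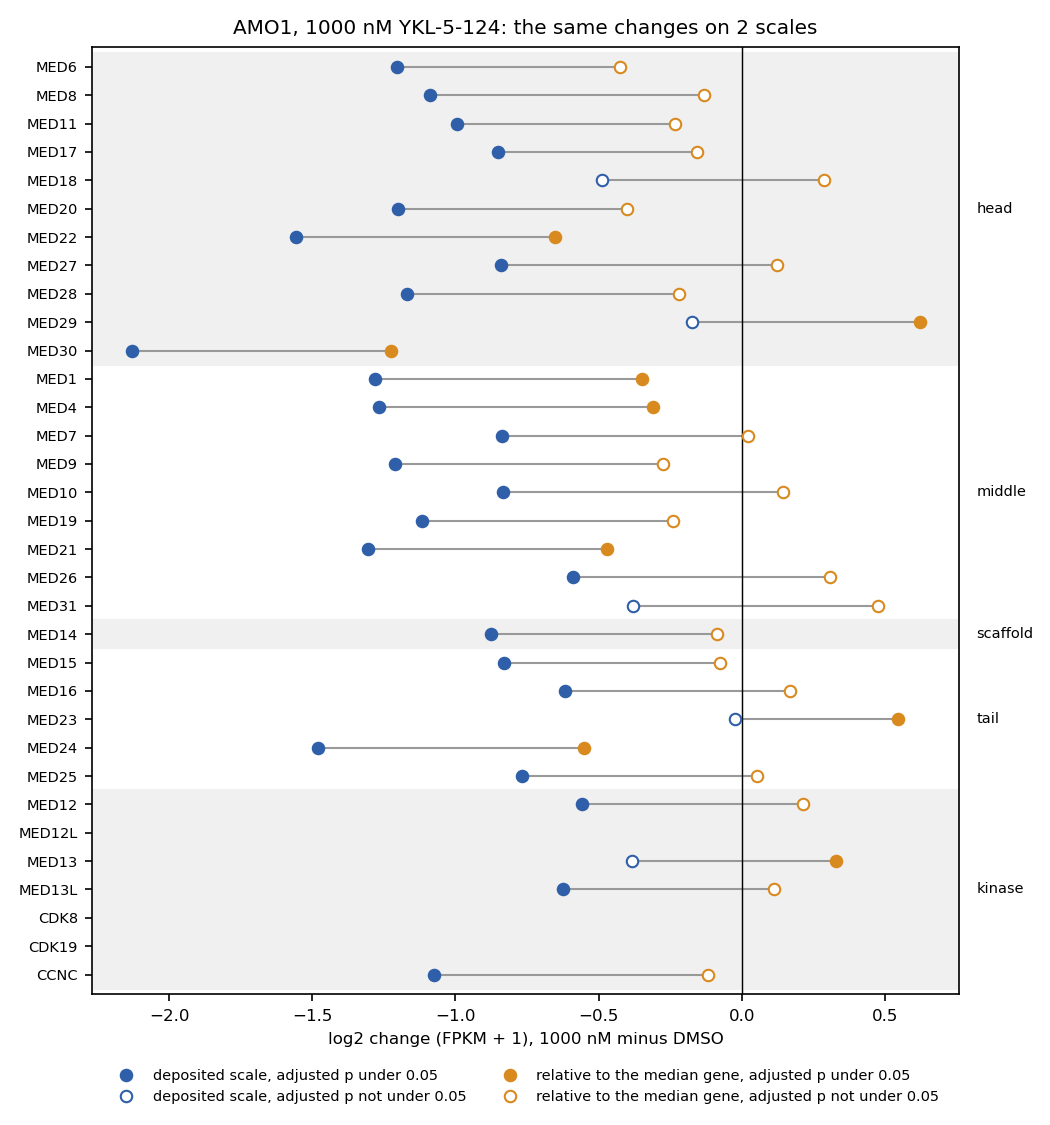
Change of each tested Mediator gene in AMO1 at 1000 nM minus DMSO, as log2(FPKM + 1), on the deposited scale (blue) and relative to the median gene (orange), filled where the adjusted p was under 0.05. On the relative scale the points scatter on both sides of 0, from MED30 at −1.23 to MED29 at 0.62.

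At 100 nM in AMO1, 9 of 30 Mediator genes fell and 0 rose, where 29.5% of all genes fell and 2.73% rose. The share is near that of all genes, and the median was log2 −0.40 for the Mediator genes and −0.35 for all genes. The 9 were MED8, MED20, MED22, MED30, MED1, MED19, MED21, MED24 and CCNC, and all 9 also fell at 1000 nM. The share of all genes that fell at both doses was not counted. Both doses were set against the same DMSO libraries, and 65.7% of all genes fell at 1000 nM. No Mediator gene was higher at an unadjusted p under 0.05. The count was 1 without DMSO replicate 2, 3 without 100 nM replicate 1, and 4 without any other of the 6 libraries. MED30 kept its call in 6 of these 6 fits, MED24 in 5 and MED22 in 4, MED20 and CCNC in 1 each and the other 4 genes in 0. Relative to the median gene MED30, MED24 and MED8 were lower, 3 of 30 where 17.1% of all genes were, and with limma 0 were higher (14.0% of all genes), with 2 at an unadjusted p under 0.05. Of these relative calls MED30 held in 6 of 6 fits without 1 library, MED24 in 2 and MED8 in 0. MED23 and MED16 were the only tested members with a change above 0 at this dose, and neither passed. MED16, a tail subunit, was at 5.14, 5.01 and 5.56 FPKM in DMSO, 4.70, 6.50 and 5.00 FPKM at 100 nM and 3.04, 2.71 and 3.46 FPKM at 1000 nM, a change of log2 0.03 ± 0.18 at 100 nM and −0.62 ± 0.18 at 1000 nM (adjusted p = 0.0080 at 1000 nM).

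The dose order in AMO1 was nearly uniform. Group means of 30 of the 33 genes fell at both dose steps. This pattern was not counted over all genes. Of the 10503 genes tested, 8308 had a change below 0 at 100 nM against DMSO, as did 28 of 30 Mediator genes. At 1000 nM against 100 nM 9705 of all genes did, and 30 of 30 Mediator genes. Tested directly, 1000 nM against 100 nM, 6 of 30 genes fell (MED6, MED22, MED4, MED7, MED21 and MED16) and 0 rose, against 23.4% and 0.209% of all genes. No gene of the complex was higher at an unadjusted p under 0.05, and on the relative scale 0 were lower and 0 higher (4.23% and 1.74% of all genes), with 2 and 0 at an unadjusted p under 0.05. This count rested on single libraries. It was 12 without 1000 nM replicate 1, 4 without 1000 nM replicate 2 and 13 without 1000 nM replicate 3. It was 2, 0 and 1 without 100 nM replicates 1, 2 and 3.

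In the XG1-labelled cells fewer Mediator genes moved. At 1000 nM 6 of 33 fell and 0 rose, where 13.2% of the 11810 genes tested fell and 3.69% rose. At 100 nM 4 of 33 fell and 0 rose, where 10.0% fell and 2.48% rose. MED28, MED1, MED4 and CCNC fell at both doses, and MED9 and MED10 also at 1000 nM. Here too the doses share their DMSO libraries, and the share of all genes that fell at both was not counted. At each dose 1 gene, MED27, was higher at an unadjusted p under 0.05. The median change of the complex was log2 −0.32 at 1000 nM and −0.29 at 100 nM, against −0.15 and −0.15 for all genes. None of the 5 tail genes was called at either dose.

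MED1 was the steadiest of these. It stood at 52.7, 49.8 and 56.1 FPKM in DMSO, 34.6, 33.4 and 24.5 FPKM at 100 nM and 29.5, 32.0 and 28.4 FPKM at 1000 nM. All treated libraries lay below all DMSO libraries, and the doses overlapped each other. The fall was log2 −0.80 ± 0.16 at 1000 nM (adjusted p = 0.0057) and −0.77 ± 0.16 at 100 nM (adjusted p = 0.0100). Relative to the median gene it was log2 −0.62 (adjusted p = 0.0034) and −0.58 (adjusted p = 0.0074). The call held on both scales and at both doses without any 1 of the 6 libraries.

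CCNC had 39.2, 47.5 and 50.6 FPKM in DMSO, 32.8, 26.2 and 27.5 FPKM at 100 nM and 30.9, 27.6 and 33.4 FPKM at 1000 nM. Treated and DMSO libraries did not overlap at either dose. It fell, with log2 −0.56 ± 0.16 at 1000 nM (adjusted p = 0.030) and −0.65 ± 0.16 at 100 nM (adjusted p = 0.021). MED28, a subunit found in animals, had 78.4, 69.8 and 89.4 FPKM in DMSO, 54.5, 54.8 and 50.9 FPKM at 100 nM and 54.6, 56.3 and 48.8 FPKM at 1000 nM. It fell, with log2 −0.56 ± 0.13 at 1000 nM (adjusted p = 0.015) and −0.55 ± 0.13 at 100 nM (adjusted p = 0.022), also with no overlap. In the reference annotation MED28 overlaps FAM184B, and nothing used here says whether reads were assigned by strand. MED4 had 53.2, 54.5 and 50.7 FPKM in DMSO, 38.1, 33.5 and 40.0 FPKM at 100 nM and 42.2, 34.6 and 37.0 FPKM at 1000 nM. Its fall was log2 −0.47 ± 0.14 at 1000 nM (adjusted p = 0.035) and −0.50 ± 0.14 at 100 nM (adjusted p = 0.036), with treated and DMSO libraries apart.

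These calls lay near the threshold. At 1000 nM the count of falls was 1 without DMSO replicate 3 or 1000 nM replicate 3, 3 without 1000 nM replicate 1, and 2 without any other library. At 100 nM it was 7 without 100 nM replicate 1, 4 without 100 nM replicate 3, 1 without DMSO replicate 3 and 2 without any other library. Without 100 nM replicate 3, the XG1-labelled library with the most genes at or below its most common value, 1 gene was called higher. CCNC kept its call in 1 of 6 such fits at 1000 nM and 3 of 6 at 100 nM, MED28 in 3 and 4, MED4 in 1 and 2, and MED9 and MED10 in 0 at 1000 nM.

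MED27 stood above its DMSO level in these cells at both doses. It stood at 90.7, 88.6 and 94.8 FPKM in DMSO, 114, 140.5 and 116 FPKM at 100 nM and 135, 102 and 115 FPKM at 1000 nM. Treated and DMSO libraries did not overlap. On the deposited scale its change was log2 0.35 ± 0.14 at 1000 nM (adjusted p = 0.11) and 0.42 ± 0.14 at 100 nM (adjusted p = 0.067). Relative to the median gene it was called higher, at log2 0.53 (adjusted p = 0.015) and 0.62 (adjusted p = 0.012), in 4 of 6 fits without 1 library at 1000 nM and 6 of 6 at 100 nM. In AMO1 MED27 had 62.6, 75.3 and 57.9 FPKM in DMSO, 48.3, 45.8 and 54.4 FPKM at 100 nM and 41.4, 24.9 and 44.3 FPKM at 1000 nM and fell at 1000 nM, with log2 −0.84 ± 0.23 (adjusted p = 0.0054). Counted against the median gene, XG1-labelled cells had 2 Mediator genes higher (MED27 and MED19) and 2 lower (MED1 and MED28) at 1000 nM, and 1 higher (MED27) and 1 lower (MED1) at 100 nM. At 1000 nM MED19 and MED28 kept these calls in 1 of 6 fits each, and no member was called higher without DMSO replicate 3 or 1000 nM replicate 1. The shares of all genes were 9.57% higher and 10.3% lower at 1000 nM, and 7.31% and 7.25% at 100 nM.

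MED15, of the tail, had 49.1, 44.8 and 61.5 FPKM in DMSO, 59.0, 47.2 and 58.0 FPKM at 100 nM and 64.4, 65.1 and 58.3 FPKM at 1000 nM with overlapping groups. Its change was log2 0.28 ± 0.15 at 1000 nM (adjusted p = 0.25). MED30 had 48.6, 52.7 and 74.4 FPKM in DMSO, 40.8, 18.7 and 39.2 FPKM at 100 nM and 42.3, 32.5 and 31.9 FPKM at 1000 nM. Its treated libraries lay below DMSO, but neither log2 −0.69 ± 0.28 at 1000 nM (adjusted p = 0.11) nor −0.87 ± 0.28 at 100 nM (adjusted p = 0.061) passed. MED9 had 15.5, 14.4 and 15.3 FPKM in DMSO, 12.9, 9.96 and 8.53 FPKM at 100 nM and 8.76, 10.9 and 8.19 FPKM at 1000 nM and fell at 1000 nM (log2 −0.65 ± 0.19, adjusted p = 0.037), also with no overlap.

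Of the kinase module only CCNC was called in the XG1-labelled cells. CDK8 was at 1.70, 0.875 and 1.49 FPKM in DMSO, 0.473, 0.612 and 0.382 FPKM at 100 nM and 0.302, 0.251 and 1.08 FPKM at 1000 nM. Its 100 nM libraries lay below DMSO and its 1000 nM libraries overlapped it, with log2 −0.63 ± 0.28 at 1000 nM (adjusted p = 0.15) and −0.65 ± 0.28 at 100 nM (adjusted p = 0.16). CDK19 had 3.65, 4.60 and 3.74 FPKM in DMSO, 6.43, 7.86 and 2.95 FPKM at 100 nM and 5.16, 5.18 and 5.85 FPKM at 1000 nM, with log2 0.36 ± 0.28 at 1000 nM (adjusted p = 0.43, 95% interval −0.26 to 0.98) and 0.36 ± 0.28 at 100 nM (adjusted p = 0.43). The 1000 nM libraries lay above DMSO and the 100 nM libraries spread across it. MED12L had 2.74, 1.90 and 2.28 FPKM in DMSO, 2.12, 3.55 and 2.02 FPKM at 100 nM and 3.18, 3.29 and 3.47 FPKM at 1000 nM, with log2 0.39 ± 0.23 at 1000 nM (adjusted p = 0.29) and 0.09 ± 0.23 at 100 nM (adjusted p = 0.84).

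MED12 was at 7.48, 7.07 and 7.36 FPKM in DMSO, 6.23, 7.63 and 5.12 FPKM at 100 nM and 8.27, 6.82 and 6.68 FPKM at 1000 nM, with overlapping groups. Its change was log2 −0.01 ± 0.19 at 1000 nM (95% interval −0.44 to 0.41). MED13 had 7.66, 5.76 and 8.50 FPKM in DMSO, 6.32, 7.24 and 4.10 FPKM at 100 nM and 4.89, 5.47 and 5.19 FPKM at 1000 nM, with log2 −0.41 ± 0.23 at 1000 nM (adjusted p = 0.25). MED13L had 15.6, 13.4 and 13.9 FPKM in DMSO, 12.0, 12.0 and 7.67 FPKM at 100 nM and 8.57, 10.7 and 9.91 FPKM at 1000 nM. Its treated libraries were all below DMSO, but log2 −0.51 ± 0.20 at 1000 nM did not pass (adjusted p = 0.10). The scaffold MED14 was at 6.54, 6.76 and 6.19 FPKM in DMSO, 6.20, 7.21 and 4.86 FPKM at 100 nM and 7.83, 5.76 and 8.06 FPKM at 1000 nM with all 3 groups overlapping, a change of log2 0.12 ± 0.20 at 1000 nM (95% interval −0.33 to 0.57).

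**Figure D3:**
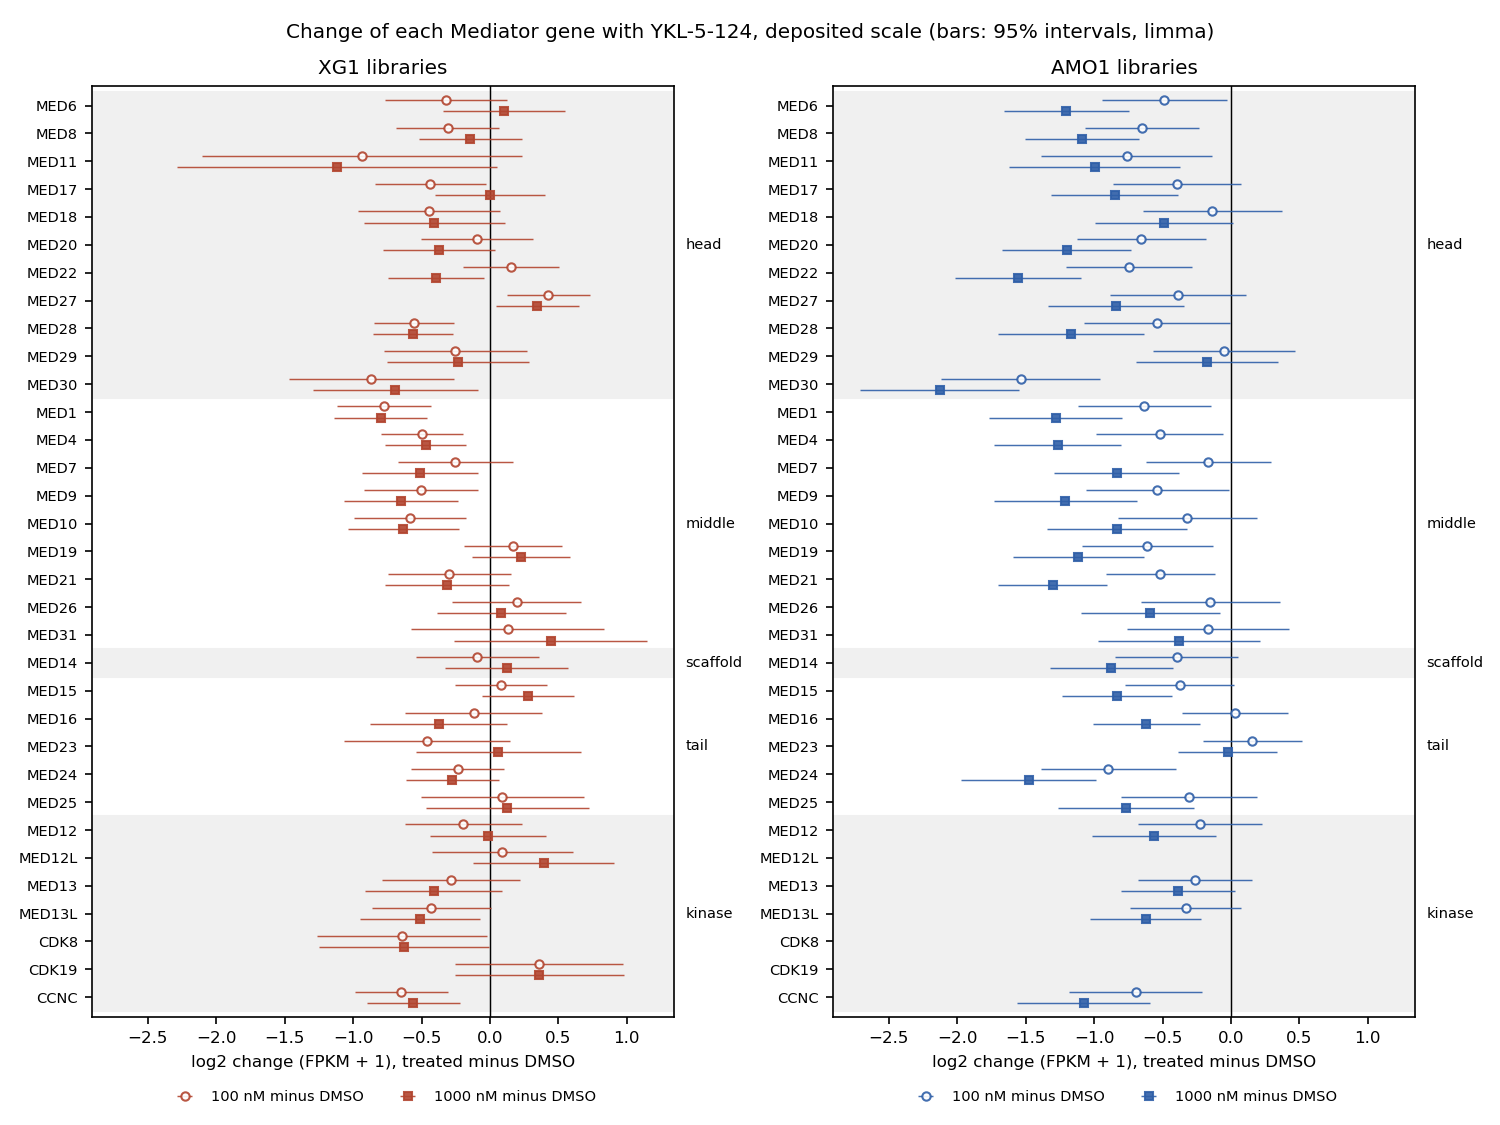
log2 change of each Mediator gene, treated minus DMSO, at 100 nM (open) and 1000 nM (filled), with 95% intervals from limma, for XG1-labelled cells (left) and AMO1 cells (right), grouped by module. In AMO1 the 1000 nM points lie left of the 100 nM points for the 30 genes tested, while in the XG1-labelled cells the intervals of the 2 doses overlap for each gene.

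Between the doses the XG1-labelled cells showed no called change in the complex. With limma, 0 of 33 genes rose and 0 fell at 1000 nM against 100 nM, where 0.0677% of all genes rose and 0.322% fell. At an unadjusted p under 0.05 there were 1 higher (MED17) and 1 lower (MED22), and on the relative scale again 0 and 0 were called (0.169% and 0.804% of all genes), with 3 and 1 at an unadjusted p under 0.05. MED22 had 38.9, 36.5 and 28.9 FPKM in DMSO, 38.3, 43.7 and 34.2 FPKM at 100 nM and 28.6, 24.5 and 25.1 FPKM at 1000 nM, so the 1000 nM libraries lay below the 100 nM libraries. Group means fell at both steps for 12 of the 33 genes, were lower at both doses than in DMSO for 20 and higher at both doses for 8. These patterns were not counted over all genes. Of the 11810 genes tested, 7581 had a change below 0 at 100 nM and 7469 at 1000 nM, both against DMSO. Of the 33 Mediator genes 24 and 22 did. At 1000 nM against 100 nM 5768 of all genes and 15 Mediator genes did.

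MED1, MED4, MED9, MED10, MED28 and CCNC were called lower at 1000 nM in both lines. The share of all genes called lower in both lines was not counted. By line, 65.7% of all genes were called lower in AMO1 and 13.2% in XG1-labelled cells. The promoters of MED1, CCNC and MED4 are shown for comparison, since these were also called at 100 nM in the XG1-labelled cells and had an entry in the RefSeq table. Each sequence is RefSeq's, GRCh38.p14, 300 bases long and spanning the gene's start, written 5′ to 3′ on the gene's strand, and capitals mark the motifs found. MED1 is at chr17:39451214-39451513 on the minus strand, CCNC at chr6:99568765-99569064 on the minus strand and MED4 at chr13:48095055-48095354 on the minus strand.
MED1: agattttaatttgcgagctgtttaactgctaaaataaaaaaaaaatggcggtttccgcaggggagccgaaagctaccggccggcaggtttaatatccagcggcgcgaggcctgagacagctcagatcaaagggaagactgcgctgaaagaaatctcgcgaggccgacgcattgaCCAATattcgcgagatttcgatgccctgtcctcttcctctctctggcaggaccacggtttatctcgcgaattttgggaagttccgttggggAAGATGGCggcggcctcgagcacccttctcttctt
CCNC: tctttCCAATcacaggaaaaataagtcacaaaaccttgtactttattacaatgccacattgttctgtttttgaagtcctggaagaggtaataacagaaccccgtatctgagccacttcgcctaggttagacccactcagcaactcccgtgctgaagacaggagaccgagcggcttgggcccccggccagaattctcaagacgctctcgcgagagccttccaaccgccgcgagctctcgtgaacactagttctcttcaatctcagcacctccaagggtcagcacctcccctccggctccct
MED4: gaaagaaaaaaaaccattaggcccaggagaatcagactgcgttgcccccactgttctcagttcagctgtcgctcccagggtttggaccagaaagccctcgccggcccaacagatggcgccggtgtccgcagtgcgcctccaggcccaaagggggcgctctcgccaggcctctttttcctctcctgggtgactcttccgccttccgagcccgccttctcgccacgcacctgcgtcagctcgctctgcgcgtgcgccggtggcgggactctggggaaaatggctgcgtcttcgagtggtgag
For the windows of all matched members, 6 motifs were searched on both strands: an ETS core (CCGGAAG), an NRF1 core (GCGCATGC), a YY1 core (AAGATGGC), an E-box (CACGTG), a GC box (GGGGCGGGG) and a CCAAT box (CCAAT). None of the 6 lies within another. The MED1 window holds the YY1 core and a CCAAT box, the CCNC window a CCAAT box, and none of the 6 was found in the MED4 window. The MED9 and MED10 windows each hold a GC box.

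The RefSeq table held the promoters of 25 of the 33 genes, and MED6, MED8, MED14, MED21, MED22, MED28, MED30 and MED13 were not matched. The ETS core was in 7 of the 25 windows (28.0%), against 10.7% of all 27305 promoters in the table. The YY1 core was in 5 of 25 (20.0%), against 3.03%. The CCAAT box was in 10 of 25 (40.0%) and 35.7% of all, the GC box in 5 of 25 (20.0%) and 16.0%, the E-box in 2 of 25 (8.0%) and 7.43%, and the NRF1 core in 1 of 25 (4.0%) and 3.27%. These shares describe letters in a window and were not tested.

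Without the drug most Mediator genes differed in level between the lines. In DMSO, 20 of 33 genes were higher in XG1-labelled cells than in AMO1 cells and 4 were lower, where 45.0% of the 12792 genes tested were higher and 19.8% lower. After scaling to the median gene 14 were higher and 6 lower, where 38.3% and 28.0% of all genes were. The median difference was log2 0.56 for the Mediator genes and 0.42 for all genes. On the relative scale these medians were 0.28 and 0.17, so that scale did not bring the median of all tested genes to 0. By module, 7 of 11 head genes, 4 of 9 middle genes, 4 of 5 tail genes and 5 of 7 kinase module genes were higher. The lower ones were MED8 of the head and MED9, MED10 and MED26 of the middle, with MED4 and CCNC added on the relative scale.

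MED15, the tail subunit that binds SREBP and other activators through its KIX domain, differed most. It had 49.1, 44.8 and 61.5 FPKM in XG1-labelled cells and 4.41, 5.47 and 5.31 FPKM in AMO1 cells. The groups lay far apart, with a difference of log2 3.11 ± 0.16 (adjusted p = 2.2e-11) and 2.78 on the relative scale. MED20, a head subunit that pairs with MED18, had 36.5, 30.4 and 39.1 FPKM in XG1-labelled cells and 7.16, 7.11 and 8.36 FPKM in AMO1 cells. That was a difference of log2 2.09 ± 0.21 (adjusted p = 1.6e-07), but MED20 overlaps BYSL in the reference annotation and reads of the pair may not be separated. MED19, a middle subunit, had 42.8, 33.6 and 46.7 FPKM in XG1-labelled cells and 13.0, 14.0 and 14.0 FPKM in AMO1 cells, a difference of log2 1.51 ± 0.20 (adjusted p = 3.4e-06).

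In the kinase module CDK19, MED12, MED12L, MED13 and MED13L were higher in XG1-labelled cells. CDK19 had 3.65, 4.60 and 3.74 FPKM in XG1-labelled cells and 0.579, 1.27 and 0.817 FPKM in AMO1 cells, a difference of log2 1.42 ± 0.23 (adjusted p = 4.3e-05) with no overlap. CDK19 overlaps AMD1 in the reference annotation. CDK8 had 1.70, 0.875 and 1.49 FPKM in XG1-labelled cells and 1.41, 0.732 and 0.708 FPKM in AMO1 cells. Its groups overlapped, with log2 0.27 ± 0.22 (adjusted p = 0.28). MED13L had 15.6, 13.4 and 13.9 FPKM in XG1-labelled cells and 3.25, 4.74 and 4.20 FPKM in AMO1 cells, a difference of log2 1.60 ± 0.18 (adjusted p = 6.8e-07). MED12L, which overlaps 6 protein-coding genes in the annotation, had 2.74, 1.90 and 2.28 FPKM in XG1-labelled cells and 0.378, 0.690 and 0.869 FPKM in AMO1 cells, a difference of log2 1.01 ± 0.18 (adjusted p = 9.5e-05). Their paralogs MED13 (log2 0.92 ± 0.20, adjusted p = 6.6e-04) and MED12 (log2 0.51 ± 0.19, adjusted p = 0.026) differed by less, and CCNC stood at log2 −0.26 ± 0.19 (adjusted p = 0.24). The MED12 call held in 2 of 6 fits, was lost without XG1 replicate 1 or 3 or AMO1 replicate 1 or 3, and was not made on the relative scale.

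MED10, a middle subunit, was the clearest case in the other direction. It had 57.7, 72.4 and 70.4 FPKM in XG1-labelled cells and 232, 281 and 260.2 FPKM in AMO1 cells, a difference of log2 −1.93 ± 0.22 (adjusted p = 5.7e-07) and −2.24 on the relative scale. MED9, also of the middle, had 15.5, 14.4 and 15.3 FPKM in XG1-labelled cells and 31.2, 35.9 and 35.4 FPKM in AMO1 cells, a difference of log2 −1.13 ± 0.22 (adjusted p = 2.0e-04). MED8, the head subunit that anchors MED18 and MED20, had 33.5, 41.1 and 30.9 FPKM in XG1-labelled cells and 51.4, 58.2 and 50.2 FPKM in AMO1 cells, a difference of log2 −0.59 ± 0.16 (adjusted p = 0.0045). None of these 3 overlapped between lines. The scaffold MED14 averaged 6.50 ± 0.290 FPKM in XG1-labelled cells and 6.42 ± 0.783 FPKM in AMO1 cells (SD, n = 3 each), a difference of log2 0.02 ± 0.19 (95% interval −0.39 to 0.43).

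**Figure D4:**
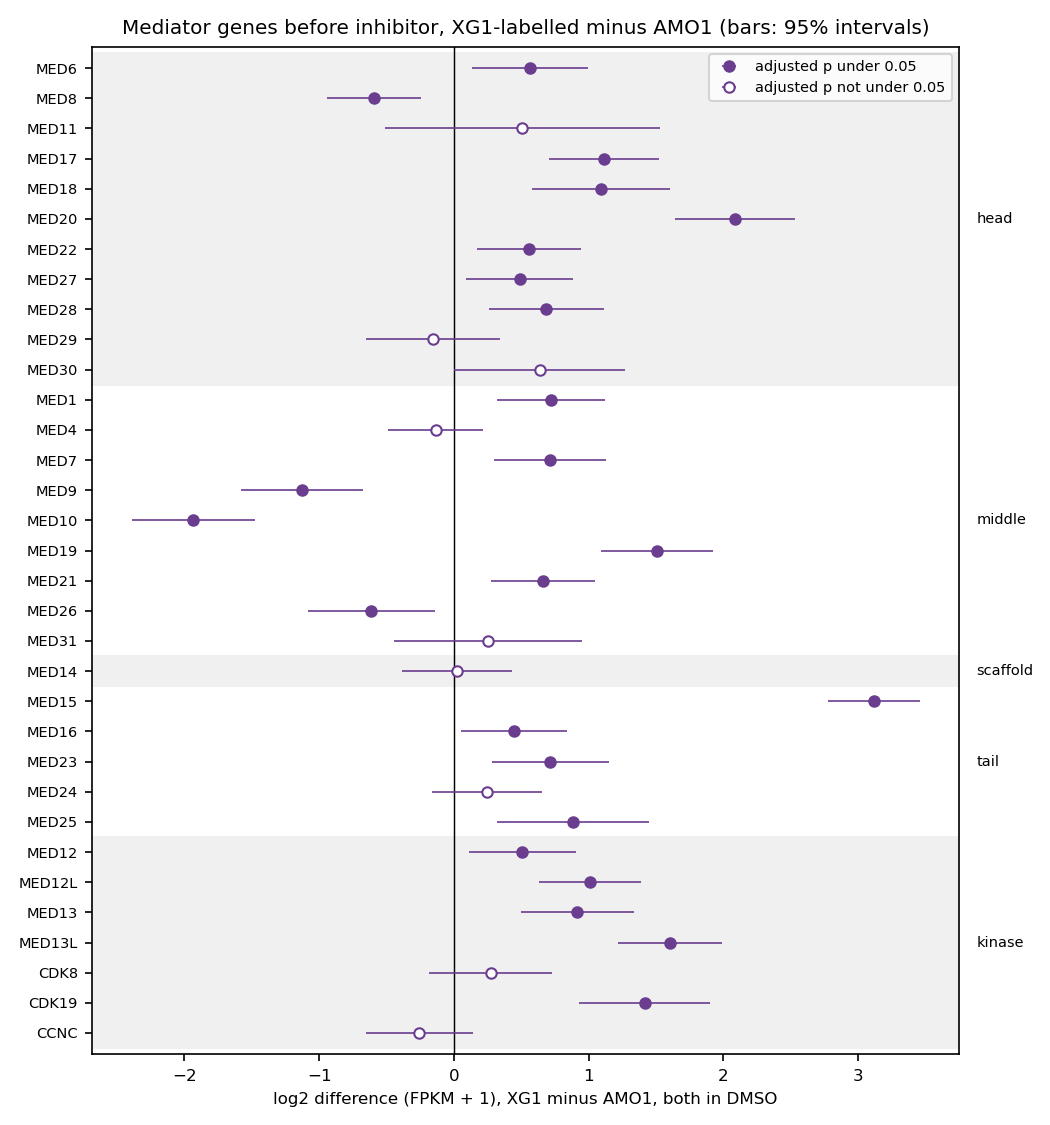
Difference of each Mediator gene between the lines in DMSO, as log2(FPKM + 1), XG1-labelled minus AMO1, with 95% intervals from limma and filled points where the adjusted p was under 0.05. MED15 (3.11) and MED10 (−1.93) mark the ends, and MED14 lies at 0.02.

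The promoters of these 2 genes at the ends of the range are shown for comparison, again RefSeq GRCh38.p14 with motifs in capitals. MED15 is at chr22:20507360-20507659 on the plus strand and MED10 at chr5:6378498-6378797 on the minus strand.
MED15: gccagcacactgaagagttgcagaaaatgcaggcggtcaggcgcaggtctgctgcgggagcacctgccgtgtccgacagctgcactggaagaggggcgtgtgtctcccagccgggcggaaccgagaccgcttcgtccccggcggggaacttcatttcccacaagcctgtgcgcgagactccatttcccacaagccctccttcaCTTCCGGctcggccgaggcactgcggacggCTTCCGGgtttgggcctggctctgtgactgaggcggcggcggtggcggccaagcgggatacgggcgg
MED10: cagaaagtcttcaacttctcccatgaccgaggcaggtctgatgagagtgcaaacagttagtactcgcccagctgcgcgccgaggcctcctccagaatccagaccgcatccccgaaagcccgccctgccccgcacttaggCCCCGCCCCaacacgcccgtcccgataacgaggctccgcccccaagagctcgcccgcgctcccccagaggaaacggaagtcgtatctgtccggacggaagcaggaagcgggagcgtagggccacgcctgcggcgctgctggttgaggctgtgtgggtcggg
The MED15 window holds the ETS core in both places marked, read on the other strand as CTTCCGG. The MED10 window holds the GC box, read as CCCCGCCCC.

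The response to 1000 nM differed between the lines for 14 Mediator genes, all with a less negative or more positive change in the XG1-labelled cells. Of all genes 32.8% differed in this direction and 1.5% in the other, and the all-gene median of the difference was log2 0.55. The 14 were MED6, MED8, MED17, MED20, MED22, MED27, MED30, MED4, MED19, MED21, MED14, MED15, MED24 and MED12L. With limma 0 differed in the other direction, also at an unadjusted p under 0.05. On the relative scale only MED19 (log2 0.61 ± 0.20, adjusted p = 0.046) remained of these, and MED10 (log2 −0.64 ± 0.19, adjusted p = 0.034) and MED13 (log2 −0.62 ± 0.18, adjusted p = 0.030) differed the other way, where 8.47% and 8.22% of all genes did. These 3 calls held in 2, 5 and 6 of 12 fits that left out 1 library.

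MED19 in XG1-labelled cells had 42.8, 33.6 and 46.7 FPKM in DMSO, 48.1, 47.8 and 41.8 FPKM at 100 nM and 55.0, 47.5 and 41.5 FPKM at 1000 nM, with log2 0.23 ± 0.16 at 1000 nM (adjusted p = 0.39) and overlapping groups. In AMO1 it had 13.0, 14.0 and 14.0 FPKM in DMSO, 10.5, 8.82 and 6.78 FPKM at 100 nM and 6.14, 4.06 and 7.55 FPKM at 1000 nM, and it fell at 1000 nM, with log2 −1.12 ± 0.22 (adjusted p = 5.9e-04) and no overlap. MED10 had 57.7, 72.4 and 70.4 FPKM in DMSO, 55.7, 43.7 and 34.9 FPKM at 100 nM and 36.0, 46.7 and 45.7 FPKM at 1000 nM in XG1-labelled cells, a change at 1000 nM of log2 −0.63 ± 0.19 (adjusted p = 0.038). In AMO1 it had 232, 281 and 260.2 FPKM in DMSO, 197, 203 and 218 FPKM at 100 nM and 171, 95.3 and 183 FPKM at 1000 nM, a change of log2 −0.83 ± 0.24 (adjusted p = 0.0068), so that the treated libraries lay below DMSO in both lines. MED1 fell in both lines, and its difference between the responses was not called (log2 0.48 ± 0.27, adjusted p = 0.17).

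At 100 nM the lines' responses differed for 1 gene, MED22 (log2 0.90 ± 0.26, adjusted p = 0.047), and for 0 in the other direction, where 5.37% and 0.86% of all genes differed. With limma 1 gene, MED23, differed in the other direction at an unadjusted p under 0.05. The MED22 call held in 3 of 12 fits that left out 1 library. It was lost without XG1 DMSO replicate 1, 2 or 3, XG1 100 nM replicate 1 or 2, AMO1 DMSO replicate 2 or 3, and AMO1 100 nM replicate 1 or 2. After scaling to the median gene MED27 alone differed (log2 0.55 ± 0.15, adjusted p = 0.034), where 5.94% of all genes were higher and 3.66% lower. The MED27 call held in 4 of 12 fits without 1 library, and no member was called higher without XG1 DMSO replicate 1 or 3, XG1 100 nM replicate 2 or 3, AMO1 DMSO replicate 1 or 2, or AMO1 100 nM replicate 2.

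Genes of the machinery that Mediator contacts were counted in the same fits. Of 12 RNA polymerase II subunit genes at 1000 nM, 2 fell and 2 rose in XG1-labelled cells, where 13.2% and 3.69% of all genes did, and 10 fell and 1 rose in AMO1, where 65.7% and 2.51% did. On the relative scale the counts were 1 lower and 2 higher in XG1-labelled cells (10.3% and 9.57% of all genes) and 5 lower and 2 higher in AMO1 (24.2% and 24.0% of all genes). POLR2A, the catalytic subunit whose tail CDK7 phosphorylates, rose in both lines. It averaged 47.1 ± 6.39 FPKM in DMSO, 134.1 ± 9.07 FPKM at 100 nM and 131.8 ± 14.7 FPKM at 1000 nM in XG1-labelled cells (SD, n = 3 each), a rise of log2 1.47 ± 0.14 at 1000 nM (adjusted p = 1.3e-04). In AMO1 it averaged 54.7 ± 6.82 FPKM in DMSO, 104.5 ± 5.97 FPKM at 100 nM and 85.8 ± 20.0 FPKM at 1000 nM. POLR2H, a small subunit shared by the nuclear polymerases, fell at 1000 nM, with log2 −0.98 ± 0.14 in XG1-labelled cells (adjusted p = 0.0010) and −2.21 ± 0.22 in AMO1 (adjusted p = 1.9e-06). POLR2G fell in AMO1, with log2 −1.435 ± 0.19 at 1000 nM (adjusted p = 2.0e-05). In XG1-labelled cells POLR2G averaged 636.7 ± 85.6 FPKM at 1000 nM and 680.6 ± 55.2 FPKM in DMSO.

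General transcription factor genes at 1000 nM fell in 2 of 30 tested cases and rose in 1 in XG1-labelled cells, and fell in 22 of 30 and rose in 1 in AMO1. Among all genes 13.2% fell and 3.69% rose in XG1-labelled cells, and 65.7% fell and 2.51% rose in AMO1. With each library scaled to its median gene 2 were lower and 4 higher in XG1-labelled cells, beside 10.3% and 9.57% of all genes. On that scale 5 were lower and 7 higher in AMO1, beside 24.2% and 24.0% of all genes. In XG1-labelled cells TAF8, a TFIID subunit, fell (log2 −1.18 ± 0.22, adjusted p = 0.0041) and TAF12, another, rose (log2 0.58 ± 0.14, adjusted p = 0.019). In AMO1 GTF2H4 (log2 −1.43 ± 0.20, adjusted p = 3.7e-05) and GTF2H3 (log2 −1.25 ± 0.19, adjusted p = 5.8e-05), both of TFIIH, fell. Each pair is named for its small adjusted p in that line. From DMSO to 1000 nM, means in AMO1 went from 2.13 to 1.03 FPKM for TAF8 and from 23.6 to 12.1 FPKM for TAF12. Means in XG1-labelled cells went from 18.3 to 16.2 FPKM for GTF2H4 and from 28.8 to 16.9 FPKM for GTF2H3.

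Of 15 enhancer and coactivator partners, which include the cohesin that holds enhancers to promoters, 3 fell at 1000 nM in XG1-labelled cells and 10 in AMO1, beside the same 13.2% and 65.7% of all genes, and 0 rose in either. Of all genes 3.69% rose in XG1-labelled cells and 2.51% in AMO1. Scaled to the median gene, 3 of the 15 were lower and 0 higher in XG1-labelled cells, beside 10.3% and 9.57% of all genes. In AMO1 4 were lower and 5 higher on that scale, beside 24.2% and 24.0% of all genes. The cohesin gene SMC1A averaged 6.84 ± 0.779 FPKM at 1000 nM and 19.0 ± 1.77 FPKM in DMSO in XG1-labelled cells (SD, n = 3 each), a change of log2 −1.35 ± 0.19 (adjusted p = 9.1e-04). In AMO1 it averaged 3.20 ± 0.587 FPKM at 1000 nM and 15.3 ± 1.55 FPKM in DMSO, a change of log2 −1.96 ± 0.18 (adjusted p = 1.2e-06) and −1.12 relative to the median gene. SMC3 fell in XG1-labelled cells (log2 −1.07 ± 0.15, adjusted p = 9.9e-04), and RAD21, the cleavable subunit of the ring, fell in AMO1 (log2 −2.06 ± 0.24, adjusted p = 7.0e-06). They are named by line only because of their small adjusted p there. The mean of SMC3 in AMO1 was also lower, at 4.12 FPKM at 1000 nM and 16.5 FPKM in DMSO. That of RAD21 in XG1-labelled cells was 78.1 FPKM at 1000 nM and 122.6 FPKM in DMSO.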

How the data were processed

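RNA from 18 libraries (2 lines, 3 doses, 3 replicates) was sequenced by a 3' method, and the labels gave each library's group. The authors' deposited values are FPKM per gene, made with HISAT2, hg19 and Cuffnorm per the submitters' processing notes, which give no versions, and no read counts could be recovered, so the depth is unknown. That the deposited scale follows the spike-ins was inferred from their level sums (166717 to 187657 FPKM) and is not stated.

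From the deposited FPKM, log2(FPKM + 1) was fitted with limma 3.58.1 (R 4.3.3, trended empirical Bayes), 1 fit of 9 libraries for each line and 1 fit of all 18 for comparisons between lines. Genes with at least 1 FPKM in 3 libraries of the fit were tested: 10503 in AMO1, 11810 in XG1 and 12792 in the joint fit. The p-values were adjusted by Benjamini-Hochberg over all of them, with a threshold of 0.05. A log2 change of log2(FPKM + 1) understates the change of low genes. The relative scale divides each library by its median-ratio size factor. Tables and figures used Python 3.11.15, pandas 2.3.3, numpy 2.4.6 and matplotlib 3.10.9.

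The members and gene lists were chosen with earlier results of these data known. By the naming rule, values in every library are given for the 7 kinase module genes, MED1, MED14 and the 3 members with the smallest adjusted p in each direction in each comparison with DMSO and between the lines in DMSO, and other lists are named by their 2 smallest adjusted p. Further members were named after their values were seen. Alternatives were the relative scale, a pseudocount of 0.1, no filter on low values, a replicate block, all 18 libraries in 1 fit, and leaving out each library.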

Additional observations from a re-analysis of the deposited data

Results flagged for a closer look

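The change with YKL-5-124 at 1000 nM differed between the lines for 14 Mediator genes by limma's test of the difference itself (XG1-labelled minus AMO1, log2 scale). In the head the differences were 1.30 for MED6, 0.94 for MED8, 0.85 for MED17, 0.83 for MED20, 1.16 for MED22, 1.19 for MED27 and 1.44 for MED30. In the middle and scaffold they were 0.80 for MED4, 1.34 for MED19, 0.99 for MED21 and 1.00 for MED14. In the tail they were 1.11 for MED15 and 1.20 for MED24, and in the kinase module 0.69 for MED12L. Of all 12792 genes tested 32.8% were called higher in the same way and 1.5% lower, and their median difference was 0.55. Relative to the median gene 1 member was called higher and 2 lower, beside 8.47% and 8.22% of all genes. MED6, MED8, MED22, MED27, MED30, MED4, MED19, MED21, MED14, MED15 and MED24 kept the call in 12 of 12 fits that left out 1 library, MED17 in 8, MED20 in 4 and MED12L in 2. MED12L was below the filter in AMO1. At 100 nM the difference was called for MED22 (0.90), where 5.37% of all genes were called higher.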

How the results depend on the processing

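Relative to the median gene, AMO1 at 1000 nM had 3 members higher and 6 lower, and the sign turned for 13 of the 30 tested: MED18 (log2 0.29), MED31 (0.48), MED27 (0.12), MED29 (0.62), MED7 (0.020), MED10 (0.14), MED26 (0.31), MED16 (0.17), MED23 (0.54), MED25 (0.053), MED12 (0.21), MED13 (0.33) and MED13L (0.11). The difference between the lines' responses to 1000 nM was below 0 for 18 of 33 members on this scale and for 4 of 33 on the deposited scale, with 1 member called higher and 2 lower; of the members called on either scale, MED4 (−0.016) and MED10 (−0.64) turned. That scale divides out the general shift by construction. It also gave 3 lower at 100 nM in AMO1, 0 at 1000 nM against 100 nM in AMO1, 2 higher and 2 lower at 1000 nM and 1 higher and 1 lower at 100 nM in XG1-labelled cells.

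Other settings moved counts near the threshold, and the cause was not tested. With no filter on low values 3 members fell in AMO1 at 100 nM, 1 in AMO1 at 1000 nM against 100 nM and 3 in XG1-labelled cells at 1000 nM. With all 18 libraries in 1 fit, 11 fell in AMO1 at 1000 nM against 100 nM, and 3 at 1000 nM and 2 at 100 nM in XG1-labelled cells. The call for MED22 between the lines at 100 nM was lost (0 members) with a pseudocount of 0.1, with no filter and with a replicate block. With the replicate block 5 fell in AMO1 at 100 nM, 3 in AMO1 at 1000 nM against 100 nM and 2 in XG1-labelled cells at 1000 nM. Same-numbered libraries deviated together weakly at most. Their correlations ran from −0.178 to 0.125 in AMO1 and from −0.0441 to 0.157 in XG1-labelled cells over 9 pairs each. Between different numbers they ran from −0.171 to 0.168 in AMO1 and from −0.137 to 0.0932 in XG1-labelled cells. In XG1-labelled cells 2 same-numbered values (0.157 and 0.151) lay above that range. The numbers were not taken as pairs, and the replicate block gives the counts with them so taken.

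Leaving out 1 library gave 23 to 26 falls in AMO1 at 1000 nM, 1 to 4 at 100 nM and 0 to 13 at 1000 nM against 100 nM. In XG1-labelled cells it gave 1 to 3 falls at 1000 nM, and 1 to 7 falls and 0 to 1 rises at 100 nM. For the lines in DMSO it gave 15 to 19 higher and 3 to 4 lower, and for the differences in response 11 to 16 at 1000 nM and 0 to 1 at 100 nM. Over the single genes followed, 557 of these values kept their side of the threshold, 150 lost it and 1 gained it. The number of libraries limits the precision, and genes near the most common listed value of a library can hardly show a fall.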
